A study of Homo sapiens with 18 samples.

Results

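The genes described here are 10 keratins of suprabasal and simple epithelial cells, KRT1, KRT10, KRT4, KRT13, KRT80, KRT8, KRT18, KRT7, KRT19 and KRT23. They were chosen with earlier results of these data known, and their rows were taken by symbol. All 10 were found among the 23710 genes of the count table of each of 3 cell lines. Counts of these keratins beside shares over all genes are therefore a description. Keratins are the intermediate filament proteins of epithelial cells, and a filament is built from pairs of 1 acidic type I and 1 basic type II chain. KRT8 and KRT18 are the pair of simple epithelia, where KRT7, KRT19 and KRT23 are also found. KRT1 and KRT10 mark the layers above the basal layer in cornified epidermis, KRT4 and KRT13 mark those layers in the moist lining of mouth and oesophagus, and KRT80 is a type II keratin of differentiating epithelia. RefSeq places KRT1, KRT4, KRT80, KRT8 and KRT7 (type II) and KRT18 (type I) on chromosome 12, and the type I genes KRT10, KRT13, KRT19 and KRT23 on chromosome 17.

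The libraries are mRNA sequencing of A253, SCC25 and CAL27, established human lines of head and neck squamous carcinoma, in which the ETS family transcription factor EHF had been raised or lowered. Overexpressing A253 (3 libraries, against 3 of control) and SCC25 (2 against 2) were treated with doxycycline while their controls grew in regular medium, so the drug and the transcription factor cannot be told apart. CAL27, in regular medium throughout, gave 2 control libraries and 4 libraries of EHF knockdown, 2 with the hairpin named sh 64 and 2 with sh 65 in the count table. The labels do not say which hairpin is knockdown 1 and which is knockdown 2, and the deposited TPM table carries both names the other way round. Each line was grown in its own recommended medium, and the labels name no separate cultures for the replicates. P-values here therefore reflect the scatter of these libraries alone, which may be technical.

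Totals ran from 7068155 to 19962159 counts per library. EHF was at 83.2 to 91.4 CPM (counts scaled to the library total) in the A253 controls and 633 to 765 CPM with overexpression, at 420.0 to 461 and 859.5 to 892 CPM in SCC25, and at 962 to 992 CPM in CAL27 controls against 444 to 526 CPM in the knockdown libraries. Its log2 changes were 3.02, 0.99 and -1.02, all past the threshold, and sh 65 and sh 64 did not differ past it (log2 difference -0.16, edgeR quasi-likelihood test, Benjamini-Hochberg adjusted p = 0.23). As a check of the labelled cell type, the 6 stratified epithelium genes CDH1, TP63, KRT5, KRT14, KRT6A and DSP were all detected in every group and summed to 6900 CPM or more in every library. Of 6 salivary acinar markers, 4 (AQP5, AMY1A, SMR3B and PRB1) were at 0 in all A253 libraries, and their sum was 0.111 to 0.294 CPM there and 0.0676 to 0.66 CPM in SCC25. In CAL27 it was 9.56 to 33.8 CPM, with STATH at 17.5 ± 1.83 CPM and SMR3B at 3.14 ± 1.51 CPM in the controls (SD, n = 2), so 2 salivary markers go against the labelled cell type there. The 5 leukocyte markers summed to 34.4 to 229 CPM, of which CD68, also expressed outside leukocytes, held most (221 ± 7.19 CPM in SCC25 controls, SD, n = 2). PTPRC, which defines leukocytes, was at most 0.411 CPM.

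In control cells the 10 keratins made up a different set in each line. Levels per length are given as TPM (transcript counts divided by gene length and scaled to a common total), so that genes can be compared with each other. In A253, KRT19 held most of the summed TPM of the 10 genes, at 1580.0 ± 38.6 TPM (SD, n = 3), a share of 62.6% ± 1.03, ahead of KRT18 at 423 ± 20.4 TPM, KRT8 at 244 ± 18.2 TPM and KRT13 at 240.4 ± 14.8 TPM. KRT8 and KRT13 did not differ beyond their spread. In SCC25 the mucosal KRT13 stood first at 404 ± 28.9 TPM (SD, n = 2), followed by KRT18 at 262 ± 12.7, KRT8 at 180.3 ± 9.15, KRT19 at 169 ± 0.236 and KRT7 at 146 ± 2.77 TPM. In CAL27 the simple epithelial pair held nearly all of the sum, with KRT18 at 808 ± 48.6 TPM (SD, n = 2) and KRT8 at 538 ± 19.9 TPM, and KRT80 came next at 54.7 ± 5.36 TPM.

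**Figure D1:**
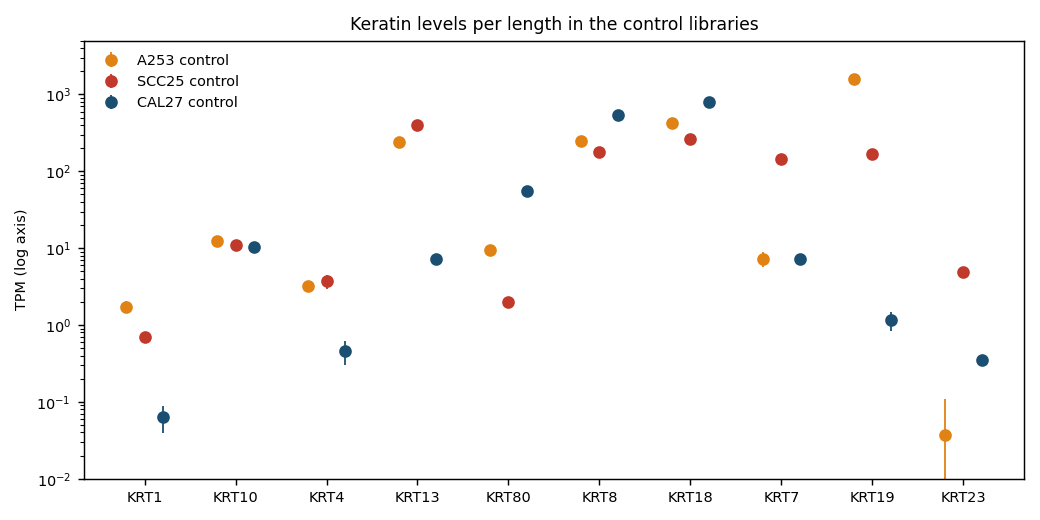
TPM of each keratin in the control libraries of each line on a log axis. Points are means and bars span the lowest and highest library (n = 3 for A253, 2 for SCC25 and CAL27), and the bar of KRT23 in A253 reaches 0, which the axis cannot show. KRT10 lies at 10.4 to 12.4 TPM in all 3 lines, whereas KRT19 runs from 1.15 TPM in CAL27 to 1580.0 TPM in A253.

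Between control lines, calls are frequent for all genes, and the lines also differ in origin and medium. SCC25 against A253 gave 3 of 10 keratins higher and 5 lower, where 39.1% of 15554 tested genes were higher and 35.4% lower. CAL27 against A253 gave 4 higher and 4 lower (36.9% and 36.1% of all genes), and CAL27 against SCC25 gave 3 higher and 6 lower (33.6% and 37.3%). KRT10, the type I partner of KRT1, differed past the threshold in none of the 3 edgeR comparisons (adjusted p = 0.711, 0.305 and 0.557). KRT19, the shortest keratin and a marker of simple and ductal epithelium, had the widest range, with a log2 difference of -10.41 (SE 0.141) between CAL27 and A253. KRT7 was 22.0-fold higher in SCC25 than in A253 (log2 difference 4.46, SE 0.119), while CAL27 and A253 did not differ past the threshold (log2 difference 0.12, adjusted p = 0.547). KRT80 was 26.8-fold higher in CAL27 than in SCC25 (log2 difference 4.75, SE 0.134). KRT23 had 2 counts in all A253 controls against 170 in SCC25, a ratio per total count of 128 with an exact counting interval of 34.8 to 1060. KRT1 had 2 counts in the CAL27 controls against 98 in A253, a ratio of 30.7 (8.29 to 257).

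**Figure D2:**
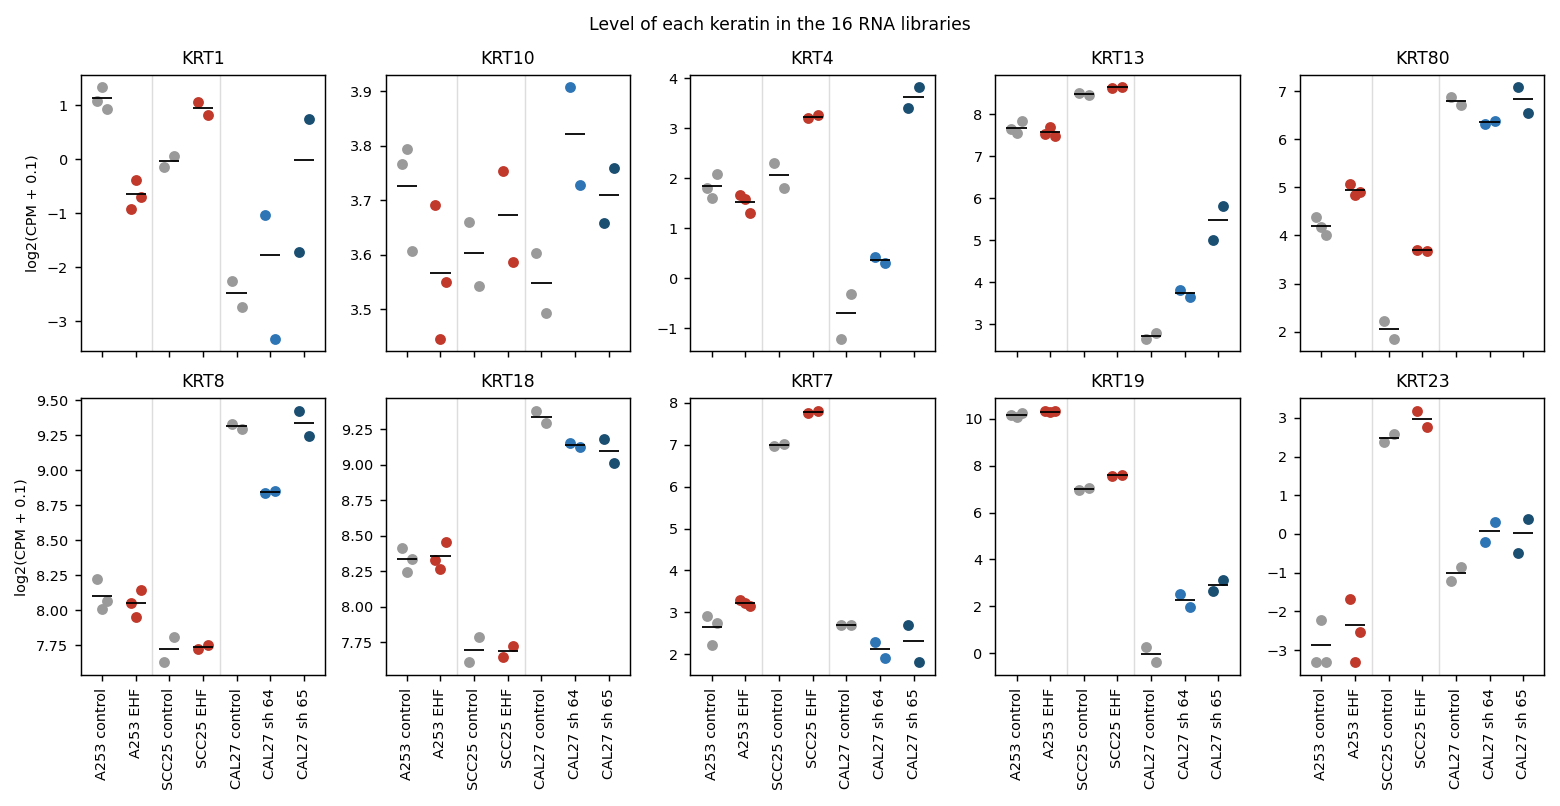
Level of each keratin in each of the 16 RNA libraries as log2(CPM + 0.1). Each point is a library, grey for control, red for EHF overexpression and blue for the hairpins, and black lines mark group means. KRT4 separates sh 65 (10.5 and 14.0 CPM) from every other CAL27 library (at most 1.24 CPM), and KRT8 separates sh 64 (456 and 461 CPM) from the other CAL27 libraries (606 CPM or more).

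In A253, EHF overexpression moved 3 of the 9 keratins tested: KRT80 and KRT7 rose and KRT1 fell. Over all 14503 genes tested 5.03% rose and 2.94% fell, and the median log2 change of the 9 keratins was -0.05 against -0.003 for all genes. In bulk RNA, fewer cells of a type and less RNA per cell cannot be told apart. KRT1 stood at 2.01, 2.42 and 1.80 CPM in the controls and at 0.427, 0.668 and 0.514 CPM with EHF. Every overexpression library was below every control library, and KRT1 fell 3.82-fold (log2 change -1.93, SE 0.288, adjusted p = 0.000326). Its level was low, with 20 to 43 counts per control library and 6 to 12 with EHF. KRT80 went from 20.7, 17.9 and 16 CPM to 33.7, 28.5 and 29.7 CPM. The groups did not overlap, and KRT80 rose 1.67-fold (log2 change 0.74, SE 0.10, adjusted p = 0.000128). KRT7, a type II keratin of ducts and glands, was at 7.48, 4.56 and 6.58 CPM in the controls and at 9.76, 9.24 and 8.82 CPM with EHF. The groups did not overlap and KRT7 rose (log2 change 0.59, SE 0.156, adjusted p = 0.0287), but control replicate 2 was lowest and without it the log2 change was 0.38 (adjusted p = 0.114). The KRT7 call also ended with DESeq2 (adjusted p = 0.0728) and without each of 4 other libraries: control replicate 3 (0.0615), and overexpression replicates 1 (0.0896), 2 (0.0913) and 3 (0.0654).

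The most abundant keratin of A253 was among those that did not pass. KRT19 was at 1153, 1084 and 1227 CPM in the controls and at 1299, 1249 and 1278 CPM with EHF. The libraries did not overlap, but the difference was small (log2 change 0.14, SE 0.0653, adjusted p = 0.237). KRT13 (control 188 to 227 CPM, EHF 178 to 206 CPM), KRT4 (2.92 to 4.15 and 2.35 to 3.06 CPM) and KRT10 (12.1 to 13.8 and 10.8 to 12.8 CPM) had log2 changes of -0.11, -0.30 and -0.17 with overlapping groups. KRT8 (258 to 299 and 248 to 282 CPM) and KRT18 (303 to 341 and 308 to 351 CPM) had log2 changes of -0.05 and 0.02. KRT23 was not tested, with 2 counts in all controls and 4 with EHF, a ratio of 2.03 (exact counting interval 0.291 to 22.4). Sums of cell type markers differed in the same A253 libraries, with no overlap between groups, but not every marker followed its sum. The leukocyte markers summed to 123 to 129 CPM in the controls and 167 to 181 CPM with EHF, through CD68 (122.5 ± 3.02 to 170.0 ± 7.42 CPM, SD, n = 3 each). LYZ of that list was lower on average (2.465 ± 0.133 and 2.09 ± 0.38 CPM). The fibroblast markers summed to 9.11 to 11.2 and 6.83 to 7.9 CPM, with COL3A1 at 7.16 ± 0.624 and 4.55 ± 0.412 CPM. COL1A1 overlapped (2.90 ± 0.828 and 2.72 ± 0.854 CPM), and COL1A2 and PDGFRB were at 0 in the controls. The stratified epithelium genes, of the labelled cell type, summed to 13200 to 13900 and 11200 to 12300 CPM. TP63 among them was higher on average with EHF (503 ± 46.6 and 577 ± 55.2 CPM). Their part in the keratin values was not tested.

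In SCC25, 7 of the 10 keratins rose with EHF and none fell. Among all 14120 genes tested 12.2% rose and 11.6% fell, and the median log2 change was 0.54 for the keratins against 0.003 for all genes. Of the mucosal pair, KRT4 was at 4.82 and 3.38 CPM in the controls and at 9.05 and 9.45 CPM with EHF. All values with EHF were above the controls, a 2.25-fold rise (log2 change 1.17, SE 0.173, adjusted p = 1.76e-05). Its type I partner KRT13 was already abundant, at 365 and 348 CPM, and was at 396 and 399.6 CPM with EHF. The groups did not overlap, but the rise was small (log2 change 0.16, SE 0.0495, adjusted p = 0.0218). KRT80 gave the largest log2 change of the 10, from 4.57 and 3.52 CPM to 12.9 and 12.7 CPM. It rose 3.15-fold (log2 change 1.65, SE 0.156, adjusted p = 1.66e-08).

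Both of the simple epithelial keratins KRT7 and KRT19 rose in SCC25. KRT7 went from 126 and 129.6 CPM to 216 and 224 CPM, a 1.72-fold rise (log2 change 0.78, SE 0.0504, adjusted p = 1.39e-11). KRT19 went from 124 and 132 CPM to 189 and 197 CPM, a 1.51-fold rise (log2 change 0.59, SE 0.0517, adjusted p = 4.17e-09). Neither gene's groups overlapped. The simple epithelial pair did not follow them: KRT8 was at 198 and 224 CPM in the controls and 211 and 216 CPM with EHF (log2 change 0.02, SE 0.0551), and KRT18 at 195 and 220.2 CPM and 200.3 and 211 CPM (log2 change -0.01, SE 0.0557). In both genes the EHF libraries lay between the control libraries. KRT10 was at 12.5 and 11.6 CPM and at 13.4 and 11.9 CPM with EHF (log2 change 0.06, adjusted p = 0.786).

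Of the 7 calls in SCC25, 3 were weaker. KRT1 had 13 and 14 counts in the controls and 21 and 25 with EHF (0.803, 0.947, 1.98 and 1.66 CPM), a log2 change of 1.04 (SE 0.341, adjusted p = 0.0278). It lost its call without any 1 of the 4 libraries (adjusted p = 0.139 and 0.0856 without control replicates 1 and 2, 0.157 and 0.0814 without overexpression replicates 1 and 2), and DESeq2 gave it no adjusted p. KRT23 was at 5.13 and 5.88 CPM and at 8.96 and 6.66 CPM with EHF, a log2 change of 0.48 (SE 0.173, adjusted p = 0.0457). Its call ended with DESeq2 (adjusted p = 0.307) and without control replicate 1 (log2 change 0.38, adjusted p = 0.184), control replicate 2 (0.58, 0.0705) or overexpression replicate 1 (0.28, 0.428). The KRT13 call ended with DESeq2 (adjusted p = 0.0568) and without control replicate 2 (0.0826), overexpression replicate 1 (0.14) or overexpression replicate 2 (0.208). DESeq2 called 4 keratins rather than 7, and 1527 rather than 3370 of all genes. KRT1 is among the 3 keratins that DESeq2 did not call. Fewer keratins also passed without any 1 of the 4 libraries. Fewer of all genes passed without control replicate 2, overexpression replicate 1 or overexpression replicate 2. KRT4, KRT19, KRT7 and KRT80 passed the threshold in all 8 alternatives. Some markers of contractile and stromal cells were higher in the same libraries: TAGLN was at 15.7 ± 1.55 CPM in SCC25 controls and 29.6 ± 0.875 CPM with EHF, COL1A1 at 4.84 ± 0.0357 and 8.76 ± 0.816 CPM, and COL1A2 at 8.07 ± 0.899 and 21.6 ± 3.27 CPM (SD, n = 2 each). Others were not: DCN was at 19.5 ± 1.9 and 15.7 ± 0.308 CPM, LUM at 55.2 ± 4.32 and 56.4 ± 4.62 CPM, and ACTA2 at 7.02 ± 0.556 and 7.35 ± 0.523 CPM. PDGFRB was at 0.459 ± 0.212 and 0.247 ± 0.216 CPM, COL3A1 at 5.05 ± 0.636 and 6.39 ± 0.37 CPM, and MYH11 at 1.51 ± 0.132 and 1.86 ± 0.76 CPM. The 4 myoepithelial markers summed to 23.8 to 25.2 CPM in controls and 38.5 to 39.1 CPM with EHF, with CNN1 at 0.197 ± 0.104 CPM in controls and 0 with EHF. The 6 fibroblast markers summed to 87.8 to 98.5 and 108 to 111 CPM, and the 3 endothelial markers to 4.87 to 5 and 6.72 to 6.98 CPM. Their part in the keratin values was not tested.

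The EHF effect itself was then compared between the lines with an interaction term over 15460 genes. The effect was more positive in SCC25 for 4 of 10 keratins, KRT1, KRT4, KRT80 and KRT19, and more negative for none, where 2.39% of all genes were more positive and 3.25% more negative. KRT1 went in opposite directions, lower with EHF in A253 and higher in SCC25, and the difference of its log2 changes was 2.96 (SE 0.436, adjusted p = 0.000357). The differences were 1.45 (SE 0.27, adjusted p = 0.00262) for KRT4 and 0.90 (SE 0.196, adjusted p = 0.00857) for KRT80. For KRT19 the difference was 0.44 (SE 0.0899, adjusted p = 0.0061). The KRT80 call ended without SCC25 control replicate 2 (0.75, adjusted p = 0.0969) and the KRT19 call without SCC25 overexpression replicate 2 (0.40, adjusted p = 0.0615). DESeq2 gave KRT1 no adjusted p for this difference (log2 2.99). KRT7 rose in both lines and its effects did not differ past the threshold (difference 0.18, SE 0.171, adjusted p = 0.634). EHF was raised less in SCC25 than in A253, by a log2 difference of -2.05.

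**Figure D3:**
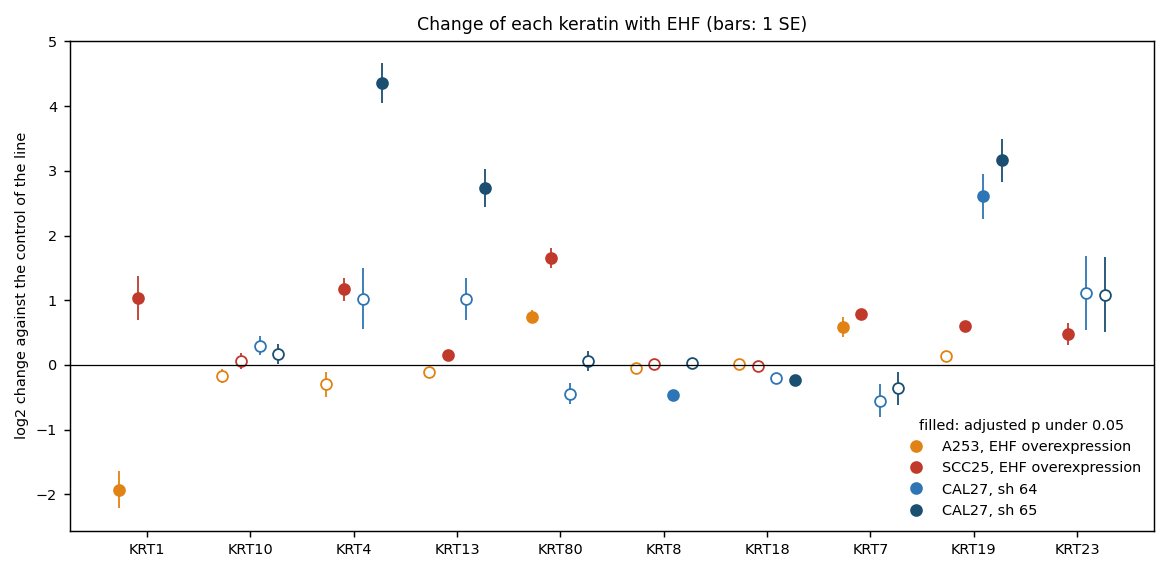
Log2 change of each keratin against the control of its line, with bars of 1 SE. Filled points passed the threshold of 0.05 on the edgeR adjusted p and open points did not, and untested genes are left out. KRT19 is high with both hairpins (2.60 and 3.17), KRT4 is at 4.36 with sh 65 and 1.02 with sh 64, and KRT8 and KRT18 stay within 0.47 of 0 in all 4 comparisons.

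In CAL27, EHF knockdown raised KRT19, KRT4 and KRT13 and lowered KRT8 and KRT18 slightly, as the mean of both hairpins. These were 3 higher and 2 lower of 9 tested, where 9.88% of 13629 genes were higher and 8.91% lower, and the median log2 change was 0.24 for the keratins against 0.003 for all genes. The 3 that rose were at most 6.82 CPM in the controls, and the abundant pair was among those that fell. KRT4 and KRT19 passed the filter on low counts only through their knockdown libraries, since their controls alone were too low. A fall of either gene from these control levels would not have been tested. The count of keratins that rose stands beside the share over all genes with this limit. The 2 CAL27 control libraries carry these comparisons. With either left out, fewer of all genes passed the threshold, and fewer keratins, each of them higher. More of all genes and more keratins passed without sh 65 replicate 1. KRT1, too low to be tested with all libraries, was among those keratins.

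KRT19 rose with both hairpins. It was at 1.11 and 0.656 CPM in the controls (10 and 13 counts), at 5.72 and 3.82 CPM with sh 64 and at 6.16 and 8.60 CPM with sh 65. All knockdown libraries were above both controls, with a log2 change of 2.60 for sh 64 (SE 0.35, adjusted p = 6.47e-05), 3.17 for sh 65 (SE 0.333, adjusted p = 3.41e-06) and 2.89 for the mean (SE 0.308, adjusted p = 3.83e-06). The hairpins did not differ past the threshold (log2 difference 0.56, SE 0.257, adjusted p = 0.254). KRT19 thus reached at most 8.60 CPM in CAL27, where every A253 control library held 1084 CPM or more.

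KRT4 and KRT13, the mucosal pair, rose mainly in the sh 65 libraries. KRT4 was at 0.332 and 0.707 CPM in the controls (3 and 14 counts), at 1.24 and 1.13 CPM with sh 64 (16 and 8 counts) and at 10.5 and 14.0 CPM with sh 65 (102 and 116 counts). The sh 65 libraries were far above the rest, a 20.5-fold rise over control (log2 change 4.36, SE 0.309, adjusted p = 4.68e-08). The control counts limit this value: leaving out control replicate 1 gave a log2 change of 4.09, and leaving out control replicate 2 gave 5.14. With sh 64 the log2 change was 1.02 (SE 0.472, adjusted p = 0.156), and the hairpins differed 10.1-fold (log2 difference 3.34, SE 0.294, adjusted p = 1.18e-06). The mean log2 change of KRT4, 2.69 (SE 0.36, adjusted p = 4.45e-05), therefore lies between unequal hairpins, and was 2.42 and 3.48 without control replicates 1 and 2. KRT13 was at 6.19 and 6.82 CPM in the controls, 14.1 and 12.4 CPM with sh 64 and 31.9 and 56.4 CPM with sh 65. The 3 groups did not overlap, and the sh 65 replicates differed most. KRT13 rose 6.65-fold with sh 65 (log2 change 2.73, SE 0.288, adjusted p = 0.00108), and its mean log2 change was 1.88 (SE 0.273, adjusted p = 0.00395).

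For KRT13 with sh 64 the log2 change was 1.02 (SE 0.323, adjusted p = 0.081). It passed under 6 of 11 alternatives, among them DESeq2 (adjusted p = 0.00261), no filter on low counts (3.38e-07), a fit of the 2 groups alone (1.54e-05), and without sh 65 replicate 1 (2.01e-06) or replicate 2 (2.7e-06). The hairpins differed for KRT13 by 1.71 on the log2 scale (SE 0.273, adjusted p = 0.0155). That call ended without sh 64 replicate 1 (adjusted p = 0.115), sh 64 replicate 2 (0.0857), control replicate 1 (0.0556) or control replicate 2 (0.0557), and in a fit of the 2 groups alone (0.0559). The mean KRT13 call ended without control replicate 1 (adjusted p = 0.0591) or control replicate 2 (0.0701).

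KRT8 separated the hairpins as well, in an abundant gene. It was at 644 and 627 CPM in the controls, 456 and 461 CPM with sh 64, and 686 and 606 CPM with sh 65. The sh 64 libraries were below all others, while sh 65 overlapped the controls. KRT8 fell 1.39-fold with sh 64 (log2 change -0.47, SE 0.0749, adjusted p = 0.000328), not with sh 65 (0.02, SE 0.0744, adjusted p = 0.872), and the hairpins differed by 0.49 (SE 0.0751, adjusted p = 0.000502). Its partner KRT18 was at 666 and 628 CPM in the controls, 571 and 559 CPM with sh 64 and 581 and 516 CPM with sh 65. All knockdown libraries were below both controls, with log2 changes of -0.20 for sh 64 (SE 0.0751, adjusted p = 0.0875) and -0.24 for sh 65 (SE 0.0752, adjusted p = 0.0411), and no difference past the threshold between hairpins (-0.04, adjusted p = 0.833). With sh 65 the KRT18 call ended without sh 65 replicate 2 (adjusted p = 0.265), control replicate 1 (0.333) or control replicate 2 (0.125) and in a fit of the 2 groups alone (0.0507), and with sh 64 it passed under 4 of 11 alternatives, among them the 2 groups alone (0.0438) and without sh 65 replicate 1 (0.0359) or replicate 2 (0.0397).

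The means over both hairpins were -0.22 for KRT8 (SE 0.064, adjusted p = 0.0205) and -0.22 for KRT18 (SE 0.0645, adjusted p = 0.0254). The KRT8 call ended without control replicate 1 (adjusted p = 0.234), control replicate 2 (0.138) or sh 64 replicate 1 (0.0505), and the KRT18 call without control replicate 1 (0.326), control replicate 2 (0.107), sh 64 replicate 2 (0.0514) or sh 65 replicate 2 (0.0509). By hairpin, sh 64 gave 1 keratin higher and 1 lower of 9 (8.76% and 6.89% of all genes), and sh 65 gave 3 higher and 1 lower (7.62% and 7.01%). Among those higher, KRT19 with both hairpins and KRT4 with sh 65 passed the filter on low counts only through knockdown libraries. Directly compared, sh 65 was above sh 64 for 3 of 9 keratins, KRT4, KRT13 and KRT8, and below for none, where 2.21% of all genes were higher and 3.13% lower. With sh 64 the count of keratins past the threshold was 4 with DESeq2, 4 with no filter and 5 in a fit of the 2 groups alone. Over all genes the count was 1192, 2566 and 2848 in these alternatives, against 2133 in the main fit. Without sh 65 replicate 1 or replicate 2, more keratins and more of all genes passed with sh 64.

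The other keratins of CAL27 did not pass. KRT7 was at 6.41 and 6.36 CPM in the controls, 4.79 and 3.68 CPM with sh 64 and 6.37 and 3.39 CPM with sh 65 (mean log2 change -0.46, SE 0.211, adjusted p = 0.147). It passed as a mean without sh 65 replicate 1 (-0.73, adjusted p = 0.0111), as did sh 65 alone without that library (-0.91, adjusted p = 0.0418). KRT80 was at 117 and 105 CPM in the controls, 80.0 and 83.1 CPM with sh 64 and 136 and 93.6 CPM with sh 65. Its sh 64 libraries were below all others (log2 change -0.44, SE 0.157, adjusted p = 0.102), a difference that passed under 6 of 11 alternatives, among them DESeq2 (0.0235), no filter (1.89e-05), the 2 groups alone (0.000115), and without sh 65 replicate 1 (5.24e-05) or replicate 2 (5.61e-05). As a mean KRT80 passed without sh 65 replicate 1 (-0.34, adjusted p = 0.000615), and with sh 65 it passed without sh 65 replicate 2 (0.29, adjusted p = 0.0368). Between hairpins the KRT80 difference of 0.50 (adjusted p = 0.141) passed with DESeq2 (0.0211), no filter (4.54e-06) and without sh 65 replicate 2 (4.62e-07).

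KRT10 was at 12.1 and 11.2 CPM in the CAL27 controls and between 12.5 and 14.9 CPM in the 4 knockdown libraries (mean log2 change 0.24, adjusted p = 0.216). KRT23 had 3 and 9 counts in the controls and 6 to 10 in each knockdown library (log2 changes of 1.11 with sh 64 and 1.09 with sh 65, adjusted p = 0.203 and 0.236). KRT1 was not tested. It had 1 count in each control library, 5 and 0 with sh 64, and 2 and 13 with sh 65, so most of its 20 knockdown counts came from sh 65 replicate 2. The ratio of library-scaled counts was 7.59 (exact counting interval 1.84 to 67.0) for both hairpins, 3.60 (0.59 to 37.8) for sh 64 and 12 (2.80 to 108) for sh 65. With no filter on low counts KRT1 was tested and passed with sh 65 (log2 change 3.40, adjusted p = 0.00932), not with sh 64 (1.66, adjusted p = 0.497) or as the mean (2.53, adjusted p = 0.0802). Without sh 65 replicate 1, which leaves the library with 13 counts, it passed with sh 65 (4.30, adjusted p = 0.00235) and as the mean (2.99, adjusted p = 0.0307). In the 4 other sets with 1 library left out that tested it, it did not pass with sh 65 (adjusted p = 0.0651 to 0.355).

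The markers of stratified epithelium moved in the same CAL27 libraries. Their sum was 6900 to 7170 CPM in the controls, 9520 to 10200 CPM with sh 64 and 10600 to 11800 CPM with sh 65. KRT14, a keratin of the basal layer, was at 732 ± 54.3 CPM in the controls (SD, n = 2) and 1712 ± 176 CPM with knockdown (SD, n = 4), and KRT5, its partner, at 4513 ± 150 and 6150 ± 810 CPM. DSP (552 ± 24.9 and 778 ± 60.0 CPM), TP63 (341 ± 4.57 and 455 ± 30.1 CPM) and KRT6A (639 ± 19.3 and 1201 ± 57.2 CPM) were also higher, so 5 of the 6 were, while CDH1 was lower (260.1 ± 14.4 and 244 ± 9.12 CPM). The part of these shifts in the values of KRT4, KRT13 and KRT19 was not tested. The 6 fibroblast markers summed to 8.08 to 8.96 CPM in the controls, 14.2 to 16.7 CPM with sh 64 and 8.73 to 9.32 CPM with sh 65. The sum with sh 64 followed LUM (3.24 ± 0.203 CPM in controls and 9.74 ± 1.64 CPM, SD, n = 2 each). COL1A1 was lower there (2.74 ± 0.661 and 1.81 ± 0.0444 CPM). Leukocyte markers summed to 41.2 to 41.8 CPM in the controls and 34.4 to 36.2 CPM with knockdown, and endothelial markers to 6.36 to 7.3 and 3.94 to 5.57 CPM.

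KRT4 and KRT8 are the 2 keratins whose difference between hairpins passed in all 11 alternatives, and the 250 bases before their starts are printed here because EHF belongs to the ETS family, whose factors bind DNA around a GGAA core. Sequences were taken from a RefSeq promoter table on GRCh38.p14, in which 3 of the 10 genes were matched by symbol (KRT4, KRT8 and KRT10), and 1 start per gene was examined. Other starts were not examined. Counts per gene do not show which start gave the reads, so a printed window may not be the one in use. Capitals mark GGAA or its reverse complement TTCC, and the longer ETS motif CCGGAAGT or its reverse complement ACTTCCGG. Both are minus-strand genes and read 5′ to 3′ toward the start, KRT4 over chr12:52814117-52814366 and KRT8 over chr12:52926470-52926719.
KRT4: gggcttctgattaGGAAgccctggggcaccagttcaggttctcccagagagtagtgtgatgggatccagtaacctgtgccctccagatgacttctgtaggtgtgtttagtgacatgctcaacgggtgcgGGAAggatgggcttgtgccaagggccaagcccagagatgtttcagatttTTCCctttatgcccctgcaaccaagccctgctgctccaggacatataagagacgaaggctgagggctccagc
KRT8: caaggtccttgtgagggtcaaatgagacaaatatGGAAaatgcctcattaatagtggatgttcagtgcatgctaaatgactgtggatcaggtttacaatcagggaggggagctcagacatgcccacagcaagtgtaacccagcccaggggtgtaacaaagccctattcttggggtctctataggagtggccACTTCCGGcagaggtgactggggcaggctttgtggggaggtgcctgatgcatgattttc
The KRT4 window held GGAA on either strand 3 times and the longer motif 0 times. The KRT8 window held GGAA 2 times, and 1 of these lies inside its single match to CCGGAAGT, on the opposite strand and 59 to 52 bases before the start. The KRT10 window held neither. Whether matches go with changes under EHF was not tested. The level of EHF itself did not differ past the threshold between the hairpins (log2 difference -0.16, edgeR adjusted p = 0.23). KRT19, which rose with both hairpins, had no matched sequence. Of all 35116 windows of 250 bases before a start, 92.7% held GGAA and 3.42% held CCGGAAGT on either strand, so the short core is near ubiquitous. Binding of EHF was not analysed here, and a match is a description of letters, not of a bound site.

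Partner chains did not always move together. The TPM ratio of KRT8 to KRT18 was 0.656 and 0.677 in the CAL27 controls, 0.542 and 0.560 with sh 64 and 0.801 and 0.796 with sh 65. The 3 groups did not overlap, with sh 64 below and sh 65 above the controls. In SCC25 the ratio was 0.689 ± 0.00155 in controls and 0.703 ± 0.0164 with EHF (SD, n = 2 each), and in A253 it was 0.578 ± 0.0156 and 0.549 ± 0.00762 (SD, n = 3 each). KRT4 to KRT13 was 0.0428 and 0.0828 in the CAL27 controls and 0.0702 and 0.0726 with sh 64, inside the control range, but 0.262 and 0.199 with sh 65. In SCC25 KRT4 to KRT13 went from 0.00915 ± 0.00197 to 0.0186 ± 0.00044 (SD, n = 2 each), so KRT4 rose more than its partner while remaining far below it. KRT7 to KRT19 was 6.70 ± 2.38 in the CAL27 controls (SD, n = 2) and 0.698 ± 0.248 with knockdown (SD, n = 4), where KRT19 rose and KRT7 did not pass the threshold. No test was run on these ratios.

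**Figure D4:**
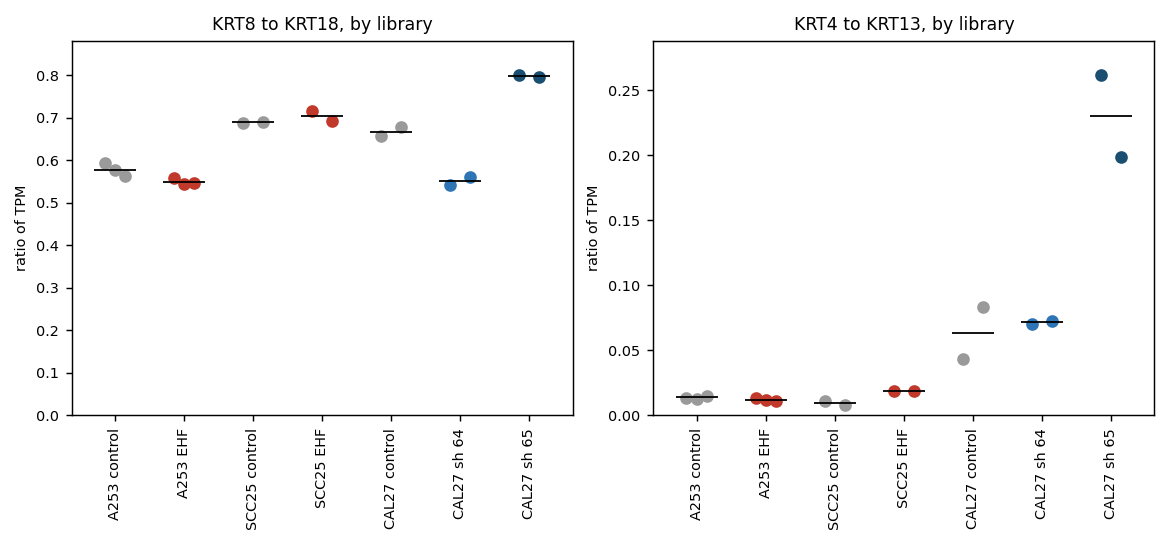
Ratio of TPM of KRT8 to KRT18 (left) and KRT4 to KRT13 (right) in each library, with TPM computed from counts and implied gene lengths, and axes that start at 0. Points are libraries and lines are group means. In CAL27 the KRT8 to KRT18 ratio is 0.542 to 0.560 with sh 64 and 0.796 to 0.801 with sh 65, and the KRT4 to KRT13 ratio is 0.199 to 0.262 with sh 65 against at most 0.0828 in any other library.

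The remaining 45 keratins of the family gave counts beside which these 10 can be read. In A253, 15 were tested, 0 rose and 5 fell (median log2 change -0.33), where 5.03% of all genes rose, 2.94% fell and the median was -0.003, and the wound-associated KRT6B had the largest fall (2.07 ± 0.24 to 0.841 ± 0.148 CPM, SD, n = 3 each, log2 change -1.25, adjusted p = 0.00483). In SCC25, 15 were tested, 5 rose and 0 fell (median 0.33), where 12.2% of all genes rose and 11.6% fell (median 0.003), led by the hair keratin KRT34 (11.1 ± 2.21 to 25.1 ± 1.44 CPM, SD, n = 2 each, log2 change 1.19, adjusted p = 3.21e-08). The interaction gave 5 more positive in SCC25 and 0 more negative of 19 (2.39% and 3.25% of all genes), with KRT81, another hair keratin, at 2.20 (adjusted p = 0.0107, and no adjusted p with DESeq2). In CAL27, 6 of 9 rose and 0 fell (median 0.91), where 9.88% of all genes rose and 8.91% fell (median 0.003), led by KRT9, the keratin of palms and soles (log2 change 1.98, adjusted p = 0.0101). KRT9 lost its call without sh 64 replicate 1 (adjusted p = 0.103), control replicate 1 (0.0839) or control replicate 2 (0.0999), and DESeq2 gave it no adjusted p. With sh 64, 7 of 9 rose (8.76% of all genes), led by KRT9 (2.16, adjusted p = 0.0122, and 0.355, 0.0803 and 0.0878 without the same libraries). With sh 65, 7 of 9 rose (7.62% of all genes), led by the basal KRT15 (2.33, adjusted p = 0.0469), whose call ended without either control replicate (0.248 and 0.208), and with no filter (0.0738). Between the hairpins 2 of 9 were higher and 1 lower with sh 65 (2.21% and 3.13% of all genes).

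Keratin network partners are plakins, plakophilins and other proteins that link or organise keratin filaments. Of 14 tested in A253, 1 rose and 2 fell (median log2 change -0.11), where 5.03% of all genes rose and 2.94% fell. In SCC25 4 of 14 rose and 0 fell (median 0.07), against 12.2% and 11.6% of all genes, and in CAL27 6 rose and 1 fell (median 0.11), against 9.88% and 8.91%. Medians over all genes were -0.003 in A253 and 0.003 in both other lines. DST, a plakin that ties keratin to hemidesmosomes, fell in A253 (1674 ± 155 to 1162 ± 101 CPM, SD, n = 3 each, log2 change -0.53, adjusted p = 0.00047) and its effect differed between lines (0.80, adjusted p = 0.000726). KLHL24, an adaptor of keratin turnover, rose in SCC25 (0.74, adjusted p = 2.65e-10). In A253 KLHL24 rose by 0.25 (adjusted p = 0.0425), but that call ended under 6 of 10 alternatives, with adjusted p up to 0.265. FLG, which aggregates keratin in the granular layer, rose with both hairpins of CAL27 (2.06 with sh 64 and 1.93 with sh 65, adjusted p = 0.000323 and 0.00075). PNN fell in CAL27 (-0.34, adjusted p = 0.025), a call that ended under 5 of 10 alternatives with adjusted p up to 0.203, and PKP3 differed between hairpins (0.36, adjusted p = 0.0123, up to 0.103 over its alternatives).

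Of 13 stratified mucosa genes, which are found with KRT4 and KRT13 in the lining of mouth and oesophagus, 0 of 5 tested changed in A253 (5.03% of all genes rose and 2.94% fell), and 1 of 7 rose and 1 fell in SCC25 (12.2% and 11.6%), near the share over all genes. In CAL27 4 of 6 rose and 1 fell (9.88% and 8.91%). Their median log2 changes were -0.12, 0.11 and 0.49. SPINK5, a protease inhibitor of differentiated layers, rose in CAL27 (2.92 ± 1.16 CPM, n = 2, to 6.88 ± 0.569 CPM, n = 4, SD, log2 change 1.13, adjusted p = 0.00131). RHCG, an ammonium transporter of mucosa, was high with sh 64 and not sh 65, the opposite order to KRT4: its level was 15.8 ± 1.14 CPM in the sh 64 libraries against 5.18 ± 0.209 CPM for sh 65 and 4.92 ± 1.18 CPM in controls (SD, n = 2 each; difference between hairpins -1.62, adjusted p = 4.47e-05). SCEL differed the other way (0.61, adjusted p = 0.00755, up to 0.0699 without 1 library). EMP1 fell in SCC25 (-0.55, adjusted p = 3.41e-07), and in CAL27 (-0.27, adjusted p = 0.017), where the call ended under 3 of 10 alternatives with adjusted p up to 0.163. ECM1 rose in SCC25 (0.38, adjusted p = 0.00646, up to 0.118 over its alternatives).

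Of 15 simple epithelium genes, 13 were tested in each line. In A253 4 rose and 2 fell (5.03% and 2.94% of all genes), in SCC25 5 rose and 2 fell (12.2% and 11.6%), and in CAL27 5 rose and 0 fell (9.88% and 8.91%). Their median log2 changes were -0.006, 0.18 and 0.29. SLPI, a secreted protease inhibitor, rose 5.66-fold in A253 (5.28 ± 0.606 to 29.6 ± 1.33 CPM, SD, n = 3 each, adjusted p = 7.38e-11) and 1.72-fold in SCC25 (adjusted p = 3.25e-07, and 0.182 without control replicate 2), and its log2 change was lower in SCC25 by 1.73 (log2 difference -1.73, adjusted p = 1.57e-07). AGR2, a disulfide isomerase of secretory cells, fell in A253 (-0.76, adjusted p = 0.000354), and the tight junction gene CLDN4 fell in SCC25 (-0.82, adjusted p = 2.81e-05). The AGR2 effect differed between lines by 0.96 (adjusted p = 0.0481), a call lost under 9 of 14 alternatives. ELF3, another epithelial ETS factor, rose in CAL27 from 38.3 ± 2.85 CPM (SD, n = 2) to 65.8 ± 7.98 CPM under hairpin sh 64 and 115 ± 17.4 CPM under sh 65, with a log2 change of 1.17 (adjusted p = 1.35e-06) for the mean and a difference of 0.81 between hairpins (adjusted p = 0.000324). ELF3 and KRT4 were both higher with sh 65 than with sh 64, with 4 knockdown libraries and no test of a link.

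Reads of keratin genes can be shared with near-identical copies. The pseudogenes in the tables, KRT8P41, KRT18P55 and KRT19P2, held at most 5, 7 and 1 counts in any library. Whether counting used strand is not given in the sources used here, so reads of overlapping antisense genes cannot be told apart from those of the keratins.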

How the data were processed

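RNA sequencing libraries of A253, SCC25 and CAL27 were analysed. Each line has a deposited table of raw counts by gene symbol, and per the submitters' processing notes TopHat2 2.1.1, Bowtie 1.1.1, featureCounts 1.5.3, DESeq2 1.12.4 and hg19 were used. The deposited TPM tables of A253 and CAL27 hold TPM made by the authors. The SCC25 table deposited beside them holds a score (counts divided by length 2 times), so SCC25 TPM was computed from counts and the lengths implied by the A253 tables. In CAL27, 696 altered gene names were taken by position from A253, since lengths implied by counts and TPM were equal (tolerance 0.02, log2) in 18450 of 18450 genes.

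Counts were fitted with edgeR 4.0.16 in R 4.3.3 (filterByExpr, TMM, robust quasi-likelihood), 1 fit per line, 1 over A253 and SCC25 for the interaction and 1 over the controls. Tests were two-sided, p-values were adjusted over all genes tested by the method of Benjamini and Hochberg, and the threshold was 0.05. CPM use TMM-scaled totals. The SE given is the absolute log2 change divided by the square root of the F statistic of its test. The p-values also depend on the degrees of freedom of each gene, so SE and p-value need not rank genes alike. Where a control group held 1 to 3 counts, a ratio is given with its exact interval (confidence level 0.95), which covers counting error only. The scripts were tested on simulated data. Alternatives were RLE scaling, DESeq2 1.42.0, no filter, a replicate block, 1 library left out, a fit of the groups compared alone, and TPM computed for all lines.

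The keratins and the 4 gene lists were chosen with earlier results of these data known. Genes named are the 10 keratins, EHF and, for the EHF comparisons, the largest rise and fall past the threshold in each list whose average log2 CPM was 0 or more. A CAL27 ChIP library and its input were not analysed here.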

Additional observations from a re-analysis of the deposited data

Results flagged for a closer look

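The effect of EHF differed between SCC25 and A253 by an interaction term for 4 keratins, with log2 differences of 2.96 for KRT1, 1.45 for KRT4, 0.44 for KRT19 and 0.90 for KRT80 (edgeR adjusted p = 0.000357, 0.00262, 0.0061 and 0.00857). Between the CAL27 hairpins, sh 65 was above sh 64 by 3.34 for KRT4, 1.71 for KRT13 and 0.49 for KRT8 on the log2 scale (edgeR adjusted p = 1.18e-06, 0.0155 and 0.000502). Dixon's test over the 4 CAL27 knockdown libraries passed its 95% critical value for none of the 10 keratins. Chance would flag about 1 group of replicates in 20, but these 4 libraries mix 2 hairpins. Where both libraries of 1 hairpin are high, as for KRT4, neither stands apart, so the test cannot exclude outliers.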

How the results depend on the processing

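No keratin change that passed the threshold reversed its sign under any alternative. Of 995 alternative values for the 10 keratins, 6 had no adjusted p from DESeq2. Of the other 989, 923 stayed on the same side of the threshold, 40 lost the call and 26 gained it, beside KRT1 in CAL27, which was not tested with the filter and all libraries. All 40 TPM values compared moved by less than 1 SD when computed from counts. The gene lengths used were implied by the deposited TPM, so this agreement was built in and tests nothing about the processing.

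With DESeq2, genes past the threshold numbered 1527 rather than 3370 in SCC25, 1446 rather than 2560 for CAL27 knockdown, 1192 rather than 2133 for sh 64, 1172 rather than 1994 for sh 65, 446 rather than 728 between hairpins and 521 rather than 871 for the interaction. Keratins past it were 4 rather than 7 in SCC25, where KRT1 had no adjusted p, and 4 rather than 2 for sh 64, where no filter also gave 4 and a fit of the groups compared alone 5. Leaving out 1 library gave 658 to 1036 genes in A253, 2124 to 3639 in SCC25, 937 to 3038 for knockdown, 866 to 2876 for sh 64, 879 to 2026 for sh 65, 263 to 1048 between hairpins and 318 to 936 for the interaction. It gave 4 to 5 keratins in SCC25, 2 to 8 for knockdown and 2 to 5 for sh 64. The cause was not tested.

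Same-numbered libraries deviated together with r of -0.558 to 0.608 in A253, 0.009 in SCC25 and -0.039 to 0.424 in CAL27, so the replicate numbers were not taken as a pairing. In A253 not every library correlated best with its own number. With the replicate number as a block, 1260 genes rather than 728 passed between hairpins. For sh 64 against control, 6 keratins rather than 2 passed, and 2968 rather than 2133 of all genes. The block brought KRT13 (adjusted p = 0.00977), KRT7 (0.0498), KRT18 (0.018) and KRT80 (0.0176) past the threshold with sh 64, KRT7 as the knockdown mean (0.0457) and KRT80 between hairpins (0.0265), and ended the sh 65 call of KRT15 (0.0804). Where a library left out leaves 1 in a group, that library is assumed to vary like the others. Depth limits KRT1 and KRT23, and KRT4 in CAL27 controls.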
